A study of Mus musculus with 6 samples.

Results

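Transcripts of the nuclear receptor superfamily were measured by RNA sequencing in mouse bone marrow cells grown with or without extra potassium. The members were 29 receptor genes taken by symbol from the deposited table of 19162 genes. Of these, 28 had a row and 25 had enough counts to be tested. The KCl group was bone marrow of C57BL/6J mice kept for 4 days in 40 ng/mL recombinant GM-CSF, a growth factor of granulocytes and macrophages, with 34.7 mM of KCl added. The control group was the same culture in GM-CSF without the added KCl. Each group had 3 libraries, numbered 1, 2 and 4. The series calls the cells bone marrow-derived myeloid-derived suppressor cells, immature myeloid cells that restrain T cells. No sort or gate is described, no age of the mice is given, and no control for the extra osmolality of KCl was analysed here. Whether the libraries of a group came from separate mice is not said in the labels, so the tests rest on the spread between libraries, which may be technical.

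Nuclear receptors are transcription factors that switch on binding of a small, fat-soluble ligand such as a steroid, retinoic acid, thyroid hormone, vitamin D, a fatty acid or an oxysterol. Most bind DNA as dimers at copies of a short half-site. Without ligand many of them hold corepressors at their target genes, and with ligand they exchange these for coactivators. Orphan receptors have no established hormone, and some of them are controlled mainly by how much of the receptor is made. In myeloid cells the family is known for control of inflammation by glucocorticoids, of cholesterol export by liver X receptors, of granulocyte maturation by retinoic acid, and of the daily clock by REV-ERB and ROR receptors.

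Library totals ranged from 17814232 to 18933948 counts in KCl and from 14118724 to 21694831 in control. KCl 4 and control 4 were not independent of the other 4 libraries. In 8231 genes of mean count 300 or more, the average of this pair in CPM (counts per library size) tracked the average of the other 4, and the log2 ratio of both averages had an SD of 0.0095. Counting noise would by itself give an SD of 0.044. For the 14 other ways to pick a pair it was 0.123 to 0.262. Tests on all 6 libraries can for this reason give p-values that are too small, and calls are given with and without replicate 4. Marker genes showed a mixed, mainly myeloid culture in which some marker levels differed between the groups. Over all tested genes, 12.4% were higher and 10.5% lower. Monocyte markers summed to 2136 to 2409 CPM in KCl and 1439 to 1704 in control (4 of 6 tested higher, 0 lower). Neutrophil markers summed to 19301 to 26132 CPM in KCl and 15698 to 17542 in control (4 of 13 higher, 0 lower). Dendritic cell markers summed to 3723 to 4583 CPM in KCl and 4906 to 6809 in control (0 of 9 higher, 5 lower). Markers of eosinophils, basophils and mast cells summed to 1259 to 1404 CPM in KCl and 2527 to 2745 in control (1 of 11 higher, 5 lower). Stromal or endothelial markers summed to 82.8 to 93.8 CPM in KCl and 83.0 to 92.7 in control (1 of 9 higher, 0 lower). Epithelial markers with a row summed to 179 to 317 CPM in KCl and 244 to 308 in control (0 of 2 tested higher, 1 lower). In bulk RNA, fewer cells of a type and less RNA per cell cannot be told apart, and the part of these marker shifts in the receptor results was not tested.

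Of the 25 tested receptor genes, 7 rose in KCl and 0 fell in edgeR's quasi-likelihood test at an adjusted p under 0.05. The 7 were Pgr, Rora, Nr1d1, Nr1d2, Esrra, Ppard and Nr2c2. Their share in either direction, 28.0%, stood near the background of 22.9% of all 13326 tested genes. By direction, 12.4% of all tested genes were higher and 10.5% were lower. At an unadjusted p under 0.05, 8 receptor genes were higher and 1 was lower. The share of all tested genes at that unadjusted threshold was not worked out, here or for the lists below. At an adjusted p under 0.05, limma-voom called 8 receptor genes higher and 0 lower. It called 1672 higher and 1400 lower of all 13326 tested genes. DESeq2 called 6 higher and 1 lower, where it called 11.8% of all tested genes higher, 9.56% lower and 21.3% either way. The median log2 fold change over the 25 was 0.19, against -0.0045 over all tested genes. In 10 of the 25 every KCl library lay above every control library, and in 0 of them did every KCl library lie below. Over all tested genes the same held for 20.2% and 18.4%, together 38.5%. Thrb and Nr3c2, both among the 10, had enough counts for the test only through the KCl libraries. Being tested at all thus depended on their level in KCl, which favours that count. Nr3c2 is also among the 8 at the unadjusted threshold and the 8 of limma-voom. Without replicate 4, 2 of the 25 were called, Pgr and Rora, both higher. Of the 13525 genes tested without it, 0.458% were called, 0.333% higher and 0.126% lower. All 25 kept the sign of their change without replicate 4, though both fits share 4 libraries. Called with all 6 libraries and again in each of the 6 fits that left out 1 library were 4 of the 25, namely Pgr, Rora, Nr1d1 and Esrra, against 10.3% of all tested genes in either direction and 6.26% higher.

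**Figure D1:**
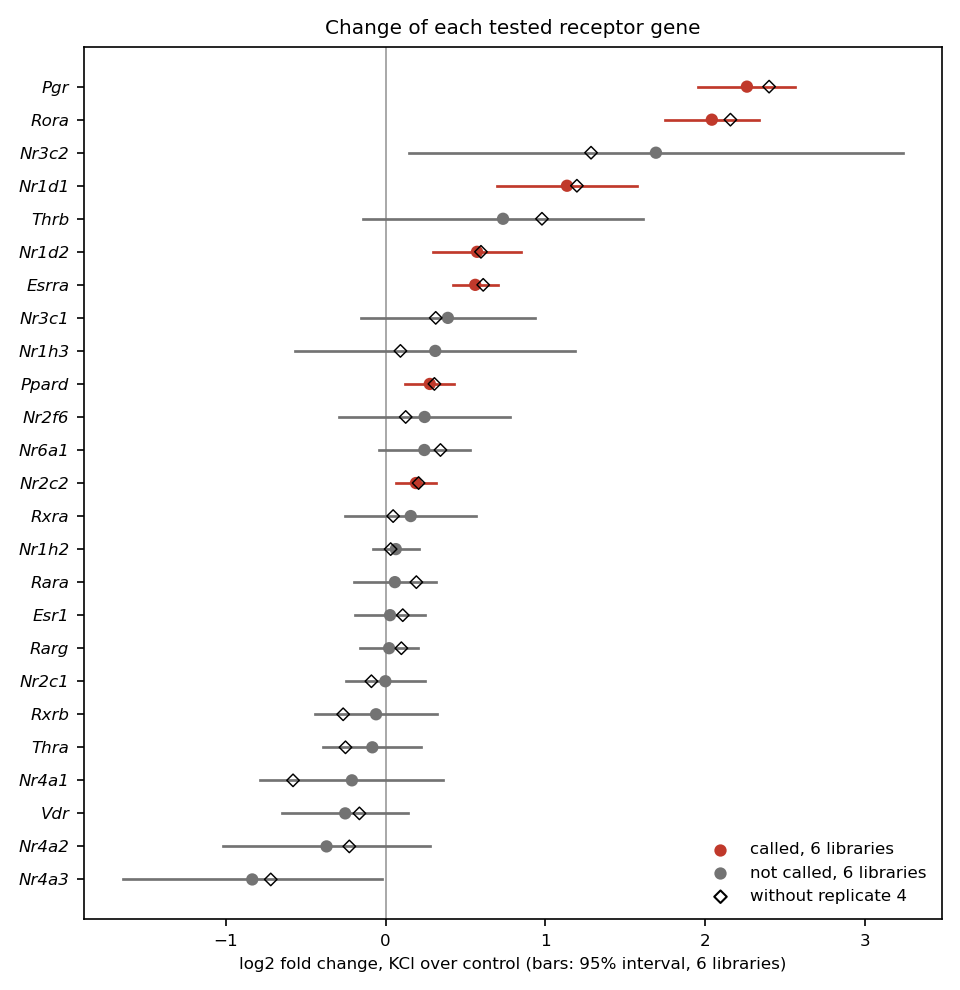
Log2 fold change of each of the 25 tested receptor genes, KCl over control, with filled points and 95% intervals from all 6 libraries and open diamonds without replicate 4. The 7 called genes (red) lie to the right of 0, Pgr (2.26) and Rora (2.04) farthest, and wide intervals belong to scarce genes such as Nr3c2 or to genes whose control libraries differ such as Nr4a3.

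Compared per length of transcript, as FPKM (fragments scaled to gene length and library size), Rara was the most abundant receptor transcript in both groups, at 29.03 ± 2.93 FPKM in KCl and 28.3 ± 3.01 in control (mean ± SD, n = 3 each). The next in KCl were Esrra at 15.9 ± 0.275, Nr1h2 at 12.4 ± 1.03, Ppard at 11.7 ± 0.422 and Vdr at 11.2 ± 1.04 FPKM. Nr1h2, Ppard and Vdr did not differ in level beyond their spread, and Esrra stood above them. In control the next places were held by Nr4a3 at 16.3 ± 7.22, Vdr at 13.6 ± 2.89, Nr1h2 at 12.1 ± 0.356 and Esrra at 10.9 ± 0.399 FPKM, and the levels of the first 3 of these lay within their spread. The summed FPKM of the 28 receptor genes was 148, 138 and 143 in KCl 1, 2 and 4, against 146, 131 and 140 in control 1, 2 and 4, so the sums overlapped between groups. Pgr was 13th by mean FPKM in KCl and 20th in control. It made up 1.92%, 2.28% and 2.04% of the receptor sum in KCl 1, 2 and 4, against 0.379%, 0.466% and 0.528% in control 1, 2 and 4.

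**Figure D2:**
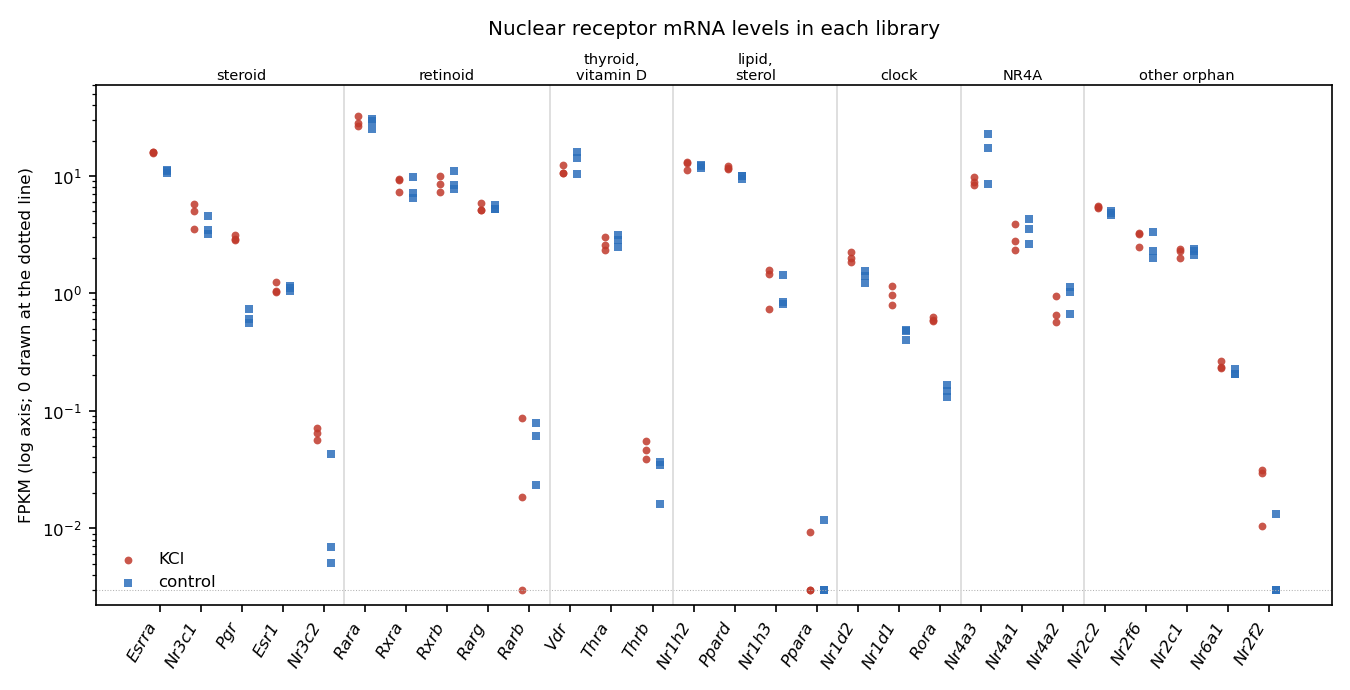
FPKM of each of the 28 receptor genes in each library on a log axis, KCl (red circles) left of control (blue squares), grouped by ligand or role, with values of 0 drawn at the dotted line. Rara is highest at 24.9 to 32.3 FPKM, Pgr and Rora show clear gaps between the groups, and Rarb, Ppara and Nr2f2 stay at or below 0.087 FPKM.

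A total of 4 members could not be tested. Rxrg, the RXR of muscle and brain, had no row and was not analysed here. Rarb, the retinoic acid receptor whose own promoter responds to retinoic acid, had counts of 5, 0 and 1 in KCl 1, 2 and 4 and 5, 4 and 1 in control 1, 2 and 4. Ppara, the fatty acid sensor of liver, had counts of 0, 0 and 1 in KCl and 0, 0 and 1 in control. Nr2f2 (COUP-TFII), an orphan receptor of vessels and stroma, had counts of 3, 3 and 1 in KCl and 0, 0 and 1 in control. These counts are too scarce to say whether the groups differed. Rarb shares 1793 exon bases with Top2b on the other strand, and the strand setting of the counting is not known, so even these few reads cannot be assigned with certainty. Thrb and Nr3c2 passed the filter with at most 18 counts in any library, and their values rest on few reads. Both passed it only through the KCl libraries.

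Among the steroid receptors, Pgr, the progesterone receptor, changed most. It had 675, 707 and 658 counts in KCl 1, 2 and 4, against 145, 166 and 131 in control 1, 2 and 4. Scaled to library size this was 35.5, 41.2 and 36.4 CPM in KCl, against 6.90, 7.60 and 9.25 CPM in control. All 3 KCl libraries were high, all 3 control libraries low, and the groups were far apart. The log2 fold change was 2.26 ± 0.13 (SE, n = 3 per group), which is 4.79-fold, with an adjusted p of 0.00155. It was 2.40 ± 0.13 without replicate 4 (adjusted p = 0.0190), and between 2.16 and 2.37 when any 1 library was left out. By size of log2 fold change Pgr was number 56 of all 13326 tested genes, counted from the highest. Pgr (ENSMUSG00000031870) is a protein-coding gene on the plus strand of chromosome 9 (mm10, 8899833 to 8968611).

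The oestrogen receptor gene Esr1, which controls Pgr in breast and uterus, did not pass. Its counts were 449, 345 and 360 in KCl and 436, 432 and 311 in control, and as CPM the groups overlapped. The log2 fold change was 0.028 ± 0.091, with a 95% interval of -0.19 to 0.25 (intervals are not adjusted for the number of genes). The glucocorticoid receptor gene Nr3c1, the main steroid receptor of leukocytes, varied between libraries of a group, at 58.4, 101 and 83.8 CPM in KCl 1, 2 and 4 and 74.95, 52.8 and 57.4 CPM in control 1, 2 and 4. KCl 1 lay below control 1, and the log2 fold change of 0.39 ± 0.22 did not pass (adjusted p = 0.303). Nr3c2, the mineralocorticoid receptor that binds aldosterone and governs potassium and sodium handling in the kidney, was scarce, with 15, 16 and 18 counts in KCl 1, 2 and 4 and 2, 13 and 1 in control 1, 2 and 4. The 3 KCl libraries were above the 3 control libraries, but control 2 stood much nearer to them than control 1 and control 4. Its log2 fold change of 1.69 ± 0.64 did not pass in edgeR (adjusted p = 0.111), whereas limma-voom gave 2.16 with an adjusted p of 0.0478. The value was 3.31 without control 2, where it passed (adjusted p = 0.0136), and 1.28 ± 0.77 without replicate 4 (adjusted p = 0.303).

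Esrra encodes the orphan receptor ERR-alpha, related in sequence to the oestrogen receptors, which drives genes of mitochondrial respiration together with PGC-1 coactivators. It had 64.7, 68.2 and 63.0 CPM in KCl 1, 2 and 4, against 42.4, 44.5 and 45.9 CPM in control 1, 2 and 4. The KCl libraries were all high and the spread within each group was small. Esrra rose by 0.56 ± 0.059 on the log2 scale (adjusted p = 0.00356), and the adjusted p stayed between 0.0142 and 0.0188 when any 1 library was left out. Without replicate 4 the log2 fold change was 0.61 ± 0.084 and did not pass (adjusted p = 0.0651). Esrra (ENSMUSG00000024955), protein-coding, is on the minus strand of chromosome 19 (mm10, 6910977 to 6921813). It shares 73 exon bases with Trmt112 on the opposite strand, a gene that was itself higher (0.31 ± 0.071, adjusted p = 0.0243).

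All 3 clock receptor genes rose with all 6 libraries. Rora encodes ROR-alpha, an activator that binds the same elements as the REV-ERB repressors and also takes part in innate lymphoid cell and macrophage programmes. Its counts were 176, 157 and 154 in KCl 1, 2 and 4, against 46, 42 and 35 in control 1, 2 and 4. That was 9.24, 9.15 and 8.52 CPM in KCl, against 2.19, 1.92 and 2.47 CPM in control. Neither group varied much and the groups were well separated. Rora rose by 2.04 ± 0.12 on the log2 scale, or 4.11-fold (adjusted p = 0.00159), and by 2.16 ± 0.19 without replicate 4 (adjusted p = 0.0432). By log2 fold change it was number 68 of the tested genes. Rora (ENSMUSG00000032238), protein-coding, is also on the plus strand of chromosome 9 (mm10, 68653786 to 69388246) and shares 82 exon bases with an antisense gene.

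Nr1d1 encodes REV-ERB-alpha, a haem-binding repressor of the clock gene Arntl. Its counts were 77, 50 and 61 in KCl 1, 2 and 4, against 29, 36 and 24 in control 1, 2 and 4. Per length of transcript Nr1d1 stood above Rora, at 0.978 ± 0.180 FPKM in KCl and 0.453 ± 0.047 in control. Rora was at 0.598 ± 0.024 FPKM in KCl and 0.149 ± 0.018 in control. Every KCl library was above every control library. Nr1d1 rose by 1.13 ± 0.18 on the log2 scale (adjusted p = 0.00842), and its log2 fold change without replicate 4 was 1.20 ± 0.30, which did not pass (adjusted p = 0.1001). Nr1d1 (ENSMUSG00000020889), protein-coding, is on the minus strand of chromosome 11 (mm10, 98767932 to 98775333) and overlaps Thra on the opposite strand over 263 exon bases. Reads there cannot be told apart without the strand setting. Thra had 259, 269 and 314 counts in KCl and 347, 399 and 205 in control, and its groups overlapped.

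Nr1d2, which encodes the partner repressor REV-ERB-beta, had 13.1, 11.2 and 11.6 CPM in KCl 1, 2 and 4, against 8.90, 7.14 and 8.12 CPM in control 1, 2 and 4. The groups did not overlap. It rose by 0.57 ± 0.11 on the log2 scale (adjusted p = 0.0160). The adjusted p was 0.0539 without KCl 4, 0.0609 without control 4 and 0.118 without both. Nr1d2 (ENSMUSG00000021775), protein-coding, is on the minus strand of chromosome 14 (mm10, 18204054 to 18239127).

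The promoters of the 4 genes called in every fit that left out 1 library are shown, with that of Nr1d2 as the partner of Nr1d1. Because KCl 4 and control 4 track the other 4 libraries, those fits are not independent of the library left out. Without replicate 4, Nr1d1 (adjusted p = 0.1001) and Esrra (0.0651) did not pass in edgeR. Each line gives the 250 bases before the start site in RefSeq (GRCm38.p6), 5′ to 3′ on the gene's strand, for chr9:8899583-8899832 (Pgr, plus), chr9:68653536-68653785 (Rora, plus), chr11:98775378-98775627 (Nr1d1, minus), chr14:18239107-18239356 (Nr1d2, minus) and chr19:6921809-6922058 (Esrra, minus). Capitals mark, on either strand, the nuclear receptor half-site AGGTCA, the clock E-box CACGTG, the TGGAAA core of sites bound by the osmotic stress factor NFAT5, and the GC box GGGCGG.
Pgr: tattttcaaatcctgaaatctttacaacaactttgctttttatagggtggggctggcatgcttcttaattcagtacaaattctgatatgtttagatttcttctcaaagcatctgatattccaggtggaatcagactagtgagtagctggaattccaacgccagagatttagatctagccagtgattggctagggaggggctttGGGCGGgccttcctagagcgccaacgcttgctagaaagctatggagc
Rora: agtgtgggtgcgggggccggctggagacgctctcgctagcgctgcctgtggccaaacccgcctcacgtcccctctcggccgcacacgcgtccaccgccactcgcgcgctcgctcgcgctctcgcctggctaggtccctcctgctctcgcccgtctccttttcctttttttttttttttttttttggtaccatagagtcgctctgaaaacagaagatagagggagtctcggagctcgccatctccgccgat
Nr1d1: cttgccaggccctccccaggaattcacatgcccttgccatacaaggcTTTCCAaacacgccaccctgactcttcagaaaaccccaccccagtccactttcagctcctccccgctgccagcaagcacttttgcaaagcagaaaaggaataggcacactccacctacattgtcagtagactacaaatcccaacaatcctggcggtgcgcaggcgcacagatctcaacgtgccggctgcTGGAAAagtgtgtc
Nr1d2: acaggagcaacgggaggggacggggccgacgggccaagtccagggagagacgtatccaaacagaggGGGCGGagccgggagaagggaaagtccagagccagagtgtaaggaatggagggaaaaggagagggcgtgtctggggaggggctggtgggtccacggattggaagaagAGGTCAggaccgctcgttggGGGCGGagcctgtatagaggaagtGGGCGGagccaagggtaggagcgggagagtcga
Esrra: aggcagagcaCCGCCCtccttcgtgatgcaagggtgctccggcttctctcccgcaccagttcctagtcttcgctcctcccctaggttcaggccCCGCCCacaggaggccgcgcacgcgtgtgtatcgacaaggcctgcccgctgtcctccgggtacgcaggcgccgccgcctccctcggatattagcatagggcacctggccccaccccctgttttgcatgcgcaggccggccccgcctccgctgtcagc

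The Nr1d2 window held 1 AGGTCA half-site, 77 to 72 bases before the start, and the other 4 printed windows held no match to it. A half-site was present in 14.03% of all 32841 RefSeq promoter windows of this length, and in 6 of the 38 windows of the 27 receptor genes matched in the promoter table used here. Nr1d1 held the TGGAAA core at 203 to 198 and at 14 to 9 bases before its start. That core was present in 18.6% of all windows and in 8 of the 38 receptor windows. The GC box stood in the windows of Pgr, Nr1d2 and Esrra, as it did in 32.7% of all windows and in 20 of the 38 receptor windows. No printed window held the E-box, which 6.02% of all windows held. The Rora window held no match to these motifs.

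Among the lipid and sterol sensors, Ppard, which senses fatty acids and supports their oxidation, was at 73.0, 81.7 and 74.1 CPM in KCl 1, 2 and 4 and at 60.5, 64.5 and 63.9 CPM in control 1, 2 and 4. The groups did not overlap, but the gap was small. Ppard rose by 0.28 ± 0.064 on the log2 scale (adjusted p = 0.0259). Its adjusted p was 0.0511 to 0.0839 without KCl 2, KCl 4, control 1, control 2 or control 4, and 0.124 without replicate 4. The liver X receptor genes Nr1h2 and Nr1h3, whose proteins sense oxysterols and switch on cholesterol export, did not pass. Nr1h2 (LXR-beta) was steady at 114, 102 and 110.5 CPM in KCl and 104, 107 and 101 CPM in control, with a 95% interval of the log2 fold change of -0.081 to 0.21. Nr1h3 (LXR-alpha), the scarcer form, was uneven at 3.78, 8.57 and 7.58 CPM in KCl 1, 2 and 4 and at 4.19, 7.33 and 4.38 CPM in control 1, 2 and 4, with an interval of -0.56 to 1.19. The fatty acid receptor gene Pparg, which is not among the 29, fell to 25.6 ± 1.56 CPM in KCl, against 39.9 ± 1.16 in control, by 0.64 ± 0.067 on the log2 scale (adjusted p = 0.00346, and 0.0686 without replicate 4).

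**Figure D3:**
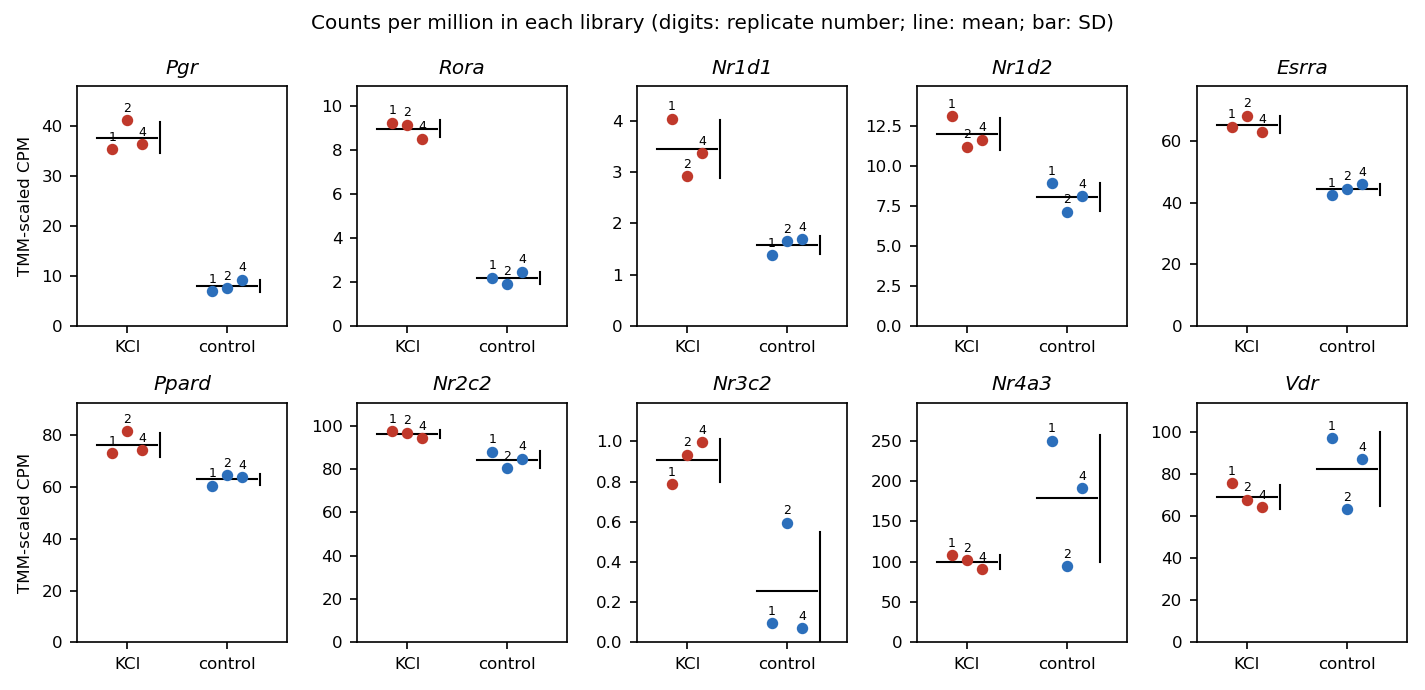
TMM-scaled CPM of 10 receptor genes in each library, KCl left of control, with the replicate number at each point, the mean as a line and the SD as a bar at its side (the lower end of the Nr3c2 control bar is cut at 0). The 7 called genes and Nr3c2 show no overlap of groups, while for Nr4a3 (94.2 CPM) and Vdr (63.1 CPM) control 2 lies among or below the KCl libraries.

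None of the 4 tested retinoid receptor genes was called. RAR proteins bind retinoic acid, and RXR proteins are their partners and those of the vitamin D, thyroid hormone, PPAR and LXR proteins. Rara, the form that drives granulocyte maturation, had 183, 167 and 150.2 CPM in KCl 1, 2 and 4 and 141, 165 and 175 CPM in control 1, 2 and 4, and the groups overlapped. Its log2 fold change was 0.058 ± 0.11, with a 95% interval of -0.20 to 0.32, and 0.19 ± 0.11 without replicate 4 (adjusted p = 0.283). Rarg stood at 30.5 ± 2.21 CPM in KCl and 30.1 ± 1.34 in control (interval -0.16 to 0.20). The common partners Rxra (interval -0.25 to 0.57) and Rxrb (-0.44 to 0.32) varied more between libraries. At an unadjusted p under 0.05, 0 of these 4 genes were picked out, and DESeq2 and limma-voom also called 0.

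Vdr, the vitamin D receptor of monocytes, was at 75.4, 67.6 and 64.2 CPM in KCl 1, 2 and 4 and at 97.0, 63.1 and 86.9 CPM in control 1, 2 and 4. Control 2 was below every KCl library, and the log2 fold change of -0.25 ± 0.16 did not pass (adjusted p = 0.367). It was -0.42 without control 2, where it passed (adjusted p = 0.0360). Of the thyroid hormone receptor genes, Thra had a log2 fold change of -0.083 ± 0.13 and did not pass (adjusted p = 0.700). The scarce Thrb, at counts of 15, 12 and 10 in KCl and 11, 5 and 7 in control, had one of 0.73 ± 0.36 and did not pass either (adjusted p = 0.214).

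The NR4A receptors are made soon after many stimuli and act without a known hormone. Nr4a3 was the most abundant of the 3 per length, and its CPM was 108, 102 and 91.0 in KCl 1, 2 and 4, against 250.04, 94.2 and 191 in control 1, 2 and 4. The KCl libraries were close to one another, while control 1 and control 4 were high and control 2 was among the KCl libraries. The log2 fold change was -0.83 ± 0.33 and did not pass in edgeR (adjusted p = 0.135), whereas DESeq2 gave an adjusted p of 0.0228. Without control 2 it was -1.14 (edgeR adjusted p = 0.0136), and without replicate 4 it was -0.72 ± 0.45 (adjusted p = 0.328). Nr4a1, which patrolling monocytes need, was at 7.47 ± 1.83 CPM in KCl and 8.58 ± 2.04 in control and did not pass (adjusted p = 0.625). Nr4a2 was at 5.99, 3.73 and 4.09 CPM in KCl 1, 2 and 4 and 7.19, 4.21 and 6.57 in control 1, 2 and 4 and did not pass (adjusted p = 0.435).

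Of the other orphan receptors, Nr2c2 (TR4), which competes for the half-sites of other receptors, was at 97.7, 96.9 and 94.4 CPM in KCl 1, 2 and 4 and at 88.0, 80.5 and 84.9 CPM in control 1, 2 and 4. The groups did not overlap. The rise was small, 0.19 ± 0.053 on the log2 scale (adjusted p = 0.0472). Its adjusted p was 0.0578 to 0.147 with any 1 library left out, 0.0544 in DESeq2 and 0.174 without replicate 4. Nr2c2 shares 4590 exon bases with Mrps25 on the opposite strand, which itself had a log2 fold change of -0.14 ± 0.070 and did not pass. Nr2c1 (TR2), its close relative, was at 10.7, 12.8 and 12.7 CPM in KCl and 12.1, 12.7 and 11.2 in control, with a 95% interval of the log2 fold change of -0.25 to 0.24. Nr2f6, which restrains lymphocyte cytokine genes, had a log2 fold change of 0.24 ± 0.22 and did not pass (adjusted p = 0.552). It shares 1622 exon bases with Ocel1 on the opposite strand, which was higher (0.61 ± 0.16, adjusted p = 0.0373). Nr6a1, the germ cell nuclear factor, was at 4.52, 4.20 and 3.87 CPM in KCl and 3.43, 3.43 and 3.81 in control; the groups did not overlap, but its log2 fold change of 0.24 ± 0.12 did not pass (adjusted p = 0.209).

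Of 20 further receptor genes of the mouse, 7 had a row and 2 were tested, 1 of them lower and 0 higher. The lower one was Pparg, described above with the lipid sensors.

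The genes that serve the receptors or answer to them were read from lists in the same fit. Across those lists and the 2 further receptor genes, 20 genes were higher and 9 lower of 100 tested. These counts, and the edgeR counts of each list below, are to be read against all tested genes. Of those, 12.4% were higher and 10.5% lower, together 22.9%. Without replicate 4, 2 of the 100 were called, both higher, against 0.333% higher and 0.126% lower of the 13525 genes tested without it. One was Bhlhe41. The other was Errfi1, a feedback inhibitor of growth factor receptors, chosen here after its values were seen. Errfi1 had 611, 603 and 226 counts in KCl 1, 2 and 4 and 241, 222 and 446 in control 1, 2 and 4. KCl 4 lay below control 4, whereas KCl 1 and KCl 2 lay above control 1 and control 2. KCl 4 and control 4 are not independent of the other libraries. The log2 fold change was 0.61 ± 0.56 with all 6 libraries (adjusted p = 0.554) and 1.63 ± 0.12 without replicate 4 (adjusted p = 0.0355).

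Retinoid handling genes moved in both directions, with 4 of 12 tested higher and 1 lower, and a median log2 fold change of 0.20, against -0.0045 over all tested genes. Aldh1a3, which makes retinoic acid from retinaldehyde, rose to 11.1 ± 1.85 CPM in KCl, against 1.61 ± 0.489 in control. Its log2 fold change was 2.80 ± 0.25 (adjusted p = 0.00286, and 0.0600 without replicate 4). The retinoic acid hydroxylase genes Cyp26a1 and Cyp26b1, whose products break it down, moved apart. Cyp26a1 had 15, 12 and 14 counts in KCl, against 40, 35 and 24 in control, and fell by 1.19 ± 0.17 on the log2 scale (adjusted p = 0.00663). Cyp26b1 had 30, 42 and 33 counts in KCl, against 18, 13 and 11 in control, and rose by 1.39 ± 0.25 (adjusted p = 0.0125, and 0.0512 without control 4). Neither Cyp26 gene passed without replicate 4 (adjusted p = 0.105 for Cyp26a1 and 0.109 for Cyp26b1).

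Of the enzymes and carriers for oxysterols, vitamin D, thyroid hormone and glucocorticoids, 1 of 9 tested was higher and 0 were lower, and the median log2 fold change was 0.049 (DESeq2 called 2 and 0; at an unadjusted p under 0.05, 2 and 0). Hsd11b2 inactivates cortisol and corticosterone and so keeps them off the mineralocorticoid receptor in the kidney. It rose by 1.13 ± 0.23 on the log2 scale, at 6.59 ± 1.35 CPM in KCl and 3.01 ± 0.717 in control. Its adjusted p was 0.0182, but 0.0512 to 0.0591 without KCl 2, KCl 4 or control 4 and 0.119 without replicate 4. Ch25h, which makes the LXR ligand 25-hydroxycholesterol, had a log2 fold change of 0.73 ± 0.22 and did not pass (adjusted p = 0.0593). Cyp27a1, which makes another oxysterol, had one of 0.23 ± 0.11 (adjusted p = 0.185).

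Of 13 coactivator genes tested, 3 were higher and 1 was lower, with a median log2 fold change of 0.071. Ppargc1b, which encodes PGC-1-beta, a partner of ERR-alpha, had 207, 240 and 213 counts in KCl 1, 2 and 4, against 99, 150 and 88 in control 1, 2 and 4. As CPM it stood at 12.2 ± 1.61 in KCl and 5.93 ± 1.10 in control, and the groups did not overlap. It rose by 1.04 ± 0.17 on the log2 scale (adjusted p = 0.00921, and 0.0894 without replicate 4). The acetyltransferase gene Kat2b rose by 0.39 ± 0.063 (adjusted p = 0.00868). The steroid receptor coactivator gene Ncoa1 rose by 0.36 ± 0.071 (adjusted p = 0.0150, and 0.0502 to 0.0567 without KCl 1, KCl 4 or control 4). The 1 lower gene was the methyltransferase gene Carm1 (-0.31 ± 0.072, adjusted p = 0.0259, and 0.0523 to 0.0940 without KCl 2, KCl 4, control 1, control 2 or control 4), named after its values were seen. Kat2b, Ncoa1 and Carm1 did not pass without replicate 4. Of 8 corepressor genes, 0 were called in either direction by edgeR, DESeq2 or limma-voom, with a median log2 fold change of -0.072, and at an unadjusted p under 0.05 there were 1 higher and 1 lower. The smallest p among them were those of Ncor1 (0.12 ± 0.045, adjusted p = 0.0983), Nrip1 (-0.39 ± 0.16, 0.132) and Lcor (0.29 ± 0.12, 0.148).

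Of 8 genes for the HSP90 complex that holds steroid receptors ready for hormone, 4 were lower and 0 higher, with a median log2 fold change of -0.20 (DESeq2 called 4 lower and 1 higher; at an unadjusted p under 0.05, 5 were lower and 1 was higher). Hsp90ab1 fell to 1712 ± 54.3 CPM in KCl, against 2393 ± 67.7 in control, by 0.48 ± 0.056 on the log2 scale (adjusted p = 0.00428). Hspa8 fell by 0.34 ± 0.053 (adjusted p = 0.00809). Hsp90aa1 fell by 0.27 ± 0.054 (adjusted p = 0.0154, and 0.0539 to 0.0708 without KCl 1, KCl 4 or control 4). Without replicate 4, 0 of the 8 passed, where only 0.458% of all genes tested without it were called.

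Glucocorticoid receptor targets held 5 genes higher and 0 lower of 11 tested (the same by DESeq2, while at an unadjusted p under 0.05, 5 were higher and 1 lower). The median log2 fold change was 0.23, and the lowest was -0.92, in a gene that was not called. The count higher was 4 under relative log expression or library-size scaling and 3 under upper-quartile scaling. Dusp1, a phosphatase that ends MAP kinase signalling, rose by 0.50 ± 0.060 (adjusted p = 0.00463). Sgk1, a kinase that raises sodium transport in the kidney, rose by 0.88 ± 0.12 (adjusted p = 0.00596), to 121 ± 14.1 CPM in KCl, against 65.5 ± 7.85 in control. Cd163, the haemoglobin scavenger receptor of macrophages, had 22, 27 and 23 counts in KCl 1, 2 and 4 and 1, 0 and 2 in control 1, 2 and 4. From the summed counts of 72 and 3, its rate in KCl was 24.8 times that in control (exact 95% interval 8.17 to 123). This interval covers counting error only, and the sums include KCl 4 and control 4, which are not independent of the other libraries. Cd163 passed the filter only through the KCl libraries, so its being tested depended on its level there. The edgeR adjusted p was 0.00498, and 0.0680 without replicate 4. Fkbp5 (0.23 ± 0.065) and Per1 (0.37 ± 0.089), named here after their values were seen, also passed with all 6 libraries. Fkbp5 gave an adjusted p of 0.0943 to 0.147 without KCl 1, KCl 2, KCl 4, control 1 or control 4, and Per1 one of 0.0840 to 0.0918 without KCl 1, KCl 4, control 1 or control 4. Without replicate 4, only Errfi1 of this list was called, so Dusp1, Sgk1, Fkbp5 and Per1 did not pass. The macrophage markers with a row summed to 389 to 443 CPM in KCl and 317 to 401 in control (1 of 7 higher, 1 lower), and their part in the Cd163 result was not tested.

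**Figure D4:**
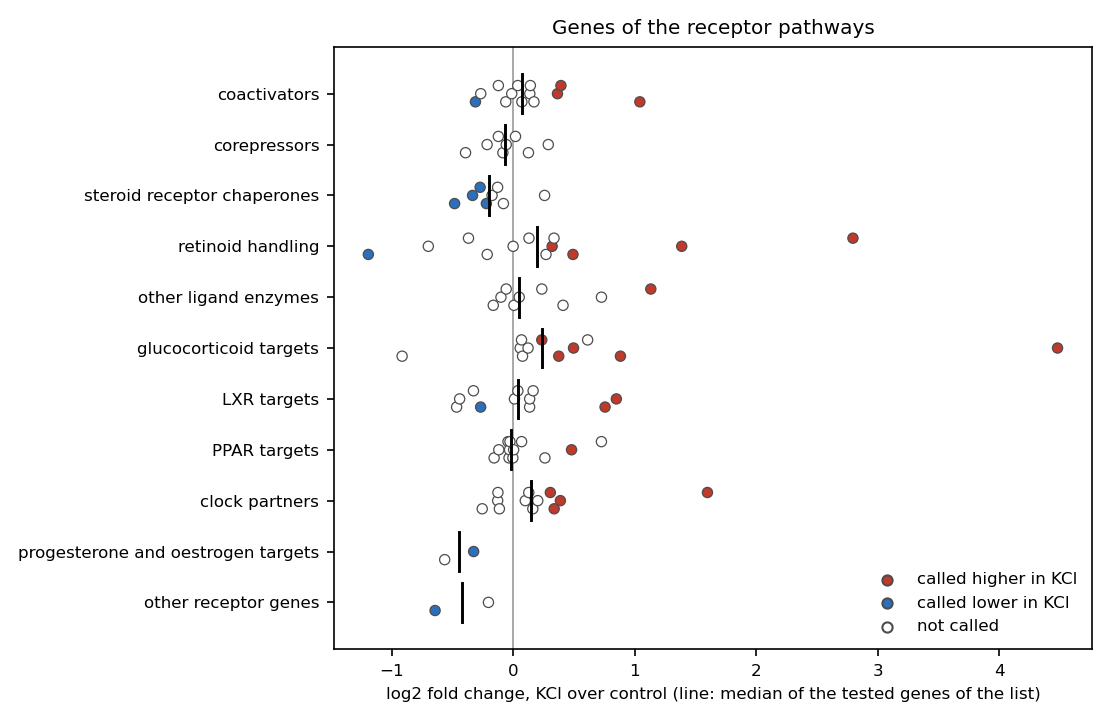
Log2 fold change, KCl over control, of each tested gene of the lists around the receptors and of the 2 further receptor genes, with the median of each list as a line (red called higher, blue called lower, white not called). The medians run from -0.45 for the 2 targets of progesterone and oestrogen receptors to 0.23 for glucocorticoid targets, and those of LXR targets (0.038) and PPAR targets (-0.015) lie near 0.

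Of 11 LXR targets, 2 were higher and 1 lower (DESeq2 called 2 and 2), with a median log2 fold change of 0.038. That share of 27.3% called stood near the 22.9% of all tested genes. Smpdl3a, a phosphodiesterase gene, rose by 0.76 ± 0.083 (adjusted p = 0.00390). Apoe, an acceptor of cholesterol, rose by 0.85 ± 0.22 (adjusted p = 0.0384, and 0.0826 to 0.121 without KCl 1, KCl 4, control 1 or control 4). Lpcat3, which remodels membrane phospholipids, fell by 0.27 ± 0.049 (adjusted p = 0.0127, and 0.0551 to 0.0604 without KCl 4 or control 4). Smpdl3a, Apoe and Lpcat3 did not pass without replicate 4. Abca1, the cholesterol exporter, chosen after its values were seen, had 746, 621 and 620 counts in KCl and 1291, 781 and 735 in control and did not pass (adjusted p = 0.171). Of 12 PPAR targets, 1 was higher and 0 were lower, with a median log2 fold change of -0.015 (the same counts by DESeq2; at an unadjusted p under 0.05, 1 higher and 1 lower). The thiolase gene Acaa2, of fatty acid oxidation, rose by 0.48 ± 0.075 (adjusted p = 0.00809) but did not pass without replicate 4. Acadl (-0.12 ± 0.048) and Cpt1a (-0.16 ± 0.080), of the same pathway, did not pass.

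Of 12 clock partners, 4 were higher and 0 lower (3 and 1 by DESeq2; at an unadjusted p under 0.05, 4 and 1), with a median log2 fold change of 0.14. Under upper-quartile scaling 3 were higher and 1 was lower. Bhlhe41 (DEC2), a repressor of the clock, rose to 586, 628 and 549 counts in KCl 1, 2 and 4, against 200, 241 and 167 in control 1, 2 and 4. The groups were far apart. The log2 fold change was 1.599 with an SE of 0.12 (adjusted p = 0.00232), and 1.71 ± 0.15 without replicate 4 (adjusted p = 0.0429). The cryptochrome repressor gene Cry1 rose by 0.39 ± 0.091 (adjusted p = 0.0277, and 0.0515 to 0.0834 without KCl 2, KCl 4, control 1 or control 4). Cry2 rose by 0.31 ± 0.073 (adjusted p = 0.0284, and 0.0649 to 0.105 without KCl 1, KCl 4, control 1, control 2 or control 4). Neither Cry1 nor Cry2 passed without replicate 4. Arntl, which REV-ERB proteins repress and ROR proteins activate, chosen after its values were seen, had 337, 248 and 271 counts in KCl and 305, 303 and 210 in control. Its log2 fold change of 0.13 ± 0.096 did not pass (adjusted p = 0.457).

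Targets of progesterone and oestrogen receptors in reproductive tissue were mostly too scarce to test. Of 8 listed, 2 were tested, 1 was lower and 0 were higher (the same by DESeq2 and limma-voom; at an unadjusted p under 0.05, 1 lower and 0 higher). The cyclin gene Ccnd1 fell by 0.33 ± 0.078 on the log2 scale (adjusted p = 0.0292, and 0.0649 to 0.0974 without KCl 2, KCl 4, control 2 or control 4). Ccnd1 did not pass without replicate 4. Greb1, a coregulator induced by oestrogen, had 8, 9 and 8 counts in KCl and 16, 13 and 10 in control and did not pass (adjusted p = 0.280).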

How the data were processed

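RNA was measured in 6 libraries, 3 per group. The submitters' processing notes name HISAT2 2.0.4, StringTie 1.3.3b, edgeR and build mm10. How reads were counted, and whether by strand, is not given in the sources used here. For each gene and library the authors deposited a count and an FPKM. Dividing count by FPKM gives back a gene length that differed between libraries by at most 5.05e-05 of its value over 12489 genes. FPKM was used to compare levels between genes and in an alternative test with a pseudocount of 0.1 or 1. The test was edgeR 4.0.16 (R 4.3.3) on the deposited counts: robust quasi-likelihood, 2-sided, TMM scaling, filterByExpr with a minimum count of 10 and total of 15, and Benjamini-Hochberg adjustment over all 13326 tested genes at a threshold of 0.05. Log2 fold changes are KCl minus control, with their SE, and CPM is TMM-scaled. All 28 members with a row matched GENCODE M21, from which coordinates and shared exon bases were taken. Promoter windows came from RefSeq. For 4 of the 5 printed, the 50 bases that follow are found in a GENCODE transcript, the exception being Nr1d1.

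The members and lists were chosen with earlier results of these data known. The rule named all members, up to 3 genes a list by smallest p, and the tested receptor genes outside the members. A result for 1 gene that the rule names is not reported here. Other genes are marked in the text as chosen after their values were seen, or are named because they share exon bases with a member. In simulated counts of 13161 genes with 50 changed at each fold, the test recovered 4% at 1.25-fold, 56% at 1.5-fold, 90% at 2-fold and 96% at 4-fold. The simulated libraries were independent, and the changed genes had a mean CPM above 5. These shares do not cover scarcer genes or the dependence of replicate 4. Alternatives were other scalings, filters, DESeq2 1.42.0, limma-voom (limma 3.58.1), FPKM, the replicate number as a block, and libraries left out.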

Additional observations from a re-analysis of the deposited data

How the results depend on the processing

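Of 118 alternative values for the 7 called receptor genes, 92 kept direction and call and 26 kept direction but missed the threshold. Of 303 for the other 18, 282 kept both, 5 newly passed and 16 changed sign, all for 6 genes near 0. The count of receptor genes called higher was 7, against 4 to 6 with 1 library left out (4 without KCl 4 or control 4) and 2 without replicate 4. The count called lower was 0, against 1 in DESeq2 and 0 to 2 with 1 library left out (2 without control 2). For the surrounding lists, 20 higher and 9 lower became 2 and 0 without replicate 4, 10 and 5 with the replicate block, and 9 to 17 higher and 4 to 13 lower with 1 library left out. Over all tested genes, 1655 higher and 1402 lower became 45 and 17 without replicate 4, 978 and 700 with the replicate block, and 852 to 1495 higher and 551 to 1356 lower with 1 library left out. Fits that leave out libraries have fewer samples. Upper-quartile scaling called 1422 higher and 1735 lower, the only scaling of those run that turned this balance.

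Deviations from the group means correlated at 0.023, -0.055 and -0.746 for numbers 1, 2 and 4. These values cannot decide whether the numbers pair the samples. The average of KCl 4 and control 4 tracks that of the other 4 libraries, which by itself constrains the deviations. With the block, Ppard (adjusted p = 0.0701) and Nr2c2 (0.141) missed the threshold.

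Sign changes were Rarg (-0.024 with upper-quartile scaling, -0.0025 and -0.0019 with FPKM pseudocounts of 0.1 and 1, and -0.037 to 0.063 with 1 library left out), Esr1 (-0.018 with upper-quartile scaling, -0.055 to 0.070 with 1 left out), Nr2c1 (0.0032 with a mean CPM of at least 5, -0.049 to 0.082 with 1 left out), and, with 1 left out, Rara (-0.038 to 0.13), Rxrb (-0.17 to 0.094) and Thra (-0.17 to 0.0078). The cause was not tested. Depth limits Nr3c2 and Thrb, with at most 18 counts a library.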
